A study of Mus musculus with 10 samples.

Results

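The 10 genes Pcdhga3 to Pcdhga12 belong to the A subfamily of the gamma protocadherin array on mouse chromosome 18. They were chosen by symbol, all 10 symbols matched an Ensembl identifier in the count files, and they are 10 of the 54532 genes counted and 10 of the 22 genes of the gamma array. The other 12 gamma genes are Pcdhga1, Pcdhga2, the Pcdhgb genes and the Pcdhgc genes.

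RNA was sequenced from NeuN+ nuclei, which are mostly nuclei of neurons, sorted from brains of adult C57BL/6J mice. The 5 control libraries were from floxed mice without the Nestin-Cre transgene, replicates 1 to 3 with Mphosph8fl/fl alleles and replicates 4 and 5 with Morc2afl/fl alleles. The 3 Mphosph8Δ/Δn libraries were from Mphosph8fl/fl Nestin-Cre+ mice and the 2 Morc2aΔ/Δn libraries from Morc2afl/fl Nestin-Cre+ mice. Nestin-Cre is active in neural progenitors, so the deletion of a single loxP-flanked exon reaches neurons and glia from before birth, and since no control carries the transgene, an effect of Cre itself cannot be told apart from that of the deletion.

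Clustered protocadherins are cell adhesion proteins that give each neuron a surface identity. Each gamma gene has its own promoter and a large variable exon that encodes the extracellular domain, the membrane span and a short cytoplasmic stretch, and this exon is spliced to a set of constant exons that the whole gamma array shares. Neurons choose among these promoters largely at random, so that a given neuron uses few of the A and B genes, while the C genes are used more broadly. MPP8, the product of Mphosph8, is the subunit of the HUSH silencing complex whose chromodomain binds H3K9me3, and MORC2A is an ATPase that compacts chromatin together with HUSH.

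The libraries held between 6686038 and 10764555 counts, and CPM, the usual depth-normalized read count, rest below on library totals scaled by TMM. A count of 0 allows up to 3 counts, which is 0.280 to 0.445 CPM depending on the library and covers counting error only. The counts of the targeted genes did not show the deletions. Mphosph8 had 30.6 ± 10.2 CPM (SD, n = 3) in the libraries labelled Mphosph8Δ/Δn and 34.2 ± 2.57 CPM (SD, n = 3) in controls of the same line. Morc2a had 219 ± 5.45 CPM (SD, n = 2) in the libraries labelled Morc2aΔ/Δn and 131 ± 13.2 CPM (SD, n = 2) in controls of its line, a higher level rather than a lower one. A count over the whole gene can include RNA that lacks the deleted exon, although the study describes such RNA as subject to decay. The study reported loss of both genes in whole brains by qRT-PCR and immunoblot. The reason why the counts here did not show it was not tested, and the genotypes below are those of the labels. NeuN itself, encoded by Rbfox3, was at 150 to 304 CPM in all 10 libraries. Summed over 8 neuron markers, the level was 4586 to 5335 CPM in the controls, 4610 to 4979 CPM in Mphosph8Δ/Δn, and lower, 3623 and 4286 CPM, in Morc2aΔ/Δn, where 5 of the 8 had an unadjusted p below 0.05, 4 of them lower and 1 higher, and 0 passed the test (edgeR). Summed over 5 markers of midbrain and hindbrain neurons (Slc17a6, Gata3, Tfap2b, Pax7 and Hoxb5), the level was 107 to 123 CPM in the controls, 136 to 150.1 CPM in Mphosph8Δ/Δn and 71.9 to 77.0 CPM in Morc2aΔ/Δn, and 0 of the 5 passed the test in either comparison, with an unadjusted p below 0.05 for 2 in the first and 1 in the second (edgeR). Summed over 6 cerebellar granule cell markers, control replicate 4 stood apart with 456 CPM. The other 4 controls were at 70.0 to 104 CPM, Mphosph8Δ/Δn at 110.4 to 378 CPM and Morc2aΔ/Δn at 65.5 and 69.4 CPM. Of the 5 granule cell markers tested, 0 passed the test, and against controls of the same line 4 had an unadjusted p below 0.05 in each knockout, all higher in Mphosph8Δ/Δn and all lower in Morc2aΔ/Δn, with median log2 fold changes of 1.67 and -1.71 over the 5 (edgeR). A sum over 8 pituitary genes was 301 CPM in Mphosph8Δ/Δn replicate 2 and between 4.02 and 27.9 CPM in the other 9 libraries. The part of these markers in the results below was not tested, and in bulk nuclei fewer cells that express a gene and less RNA per cell cannot be told apart.

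What a count of a gamma gene measures depends on how reads on shared bases were handled, and the files answer this. Among genes that share every exonic base with another gene of the same strand, 6 of 752 (0.798%) had a count in any library. Among genes whose exonic bases are all shared with genes of the opposite strand and none with their own strand, 3 of 454 (0.661%) had one. Of genes that share no exonic base, 22231 of 42670 (52.1%) had one. Reads on bases that belong to more than one gene, on either strand, were therefore next to absent from the counts, and the constant exons of the gamma array, 2116 or 2119 bases in each of the 10 genes, contributed next to nothing. The counts of the gamma A genes come from the bases that each gene has for itself, which are mostly in its variable exon. All members end near the same position, so each variable exon lies within the span of the members before it. Reads there from unspliced nuclear RNA of such a member cannot be told apart from those of the gene itself.

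These own bases differ widely among the 10 genes. Pcdhga3 (chromosome 18 of GRCm38 from 37674307 to 37841873, plus strand), Pcdhga5 and Pcdhga6 have their whole variable exon for themselves, 2601, 2545 and 2614 bases. Pcdhga4 has 1570 own bases, because 1038 bases of its variable exon are also annotated to Pcdhgb1. Pcdhga7 has 2562 own bases and Pcdhga8 has 2087, with 536 and 416 bases covered by the antisense gene Gm37165. Pcdhga9 has 3470, of which 862 lie past the end of the variable exon. Pcdhga12 (from 37765580 to 37841873) has 4123 own bases, the most of the 10, since a transcript that reads on past the variable exon adds 1584 bases. Pcdhga11 has 1256, as 52.4% of its variable exon lies opposite Gm26672. All 2613 bases of the Pcdhga10 variable exon (from 37746993 to 37749605) lie opposite exons of Gm26672, which leaves Pcdhga10 with 0 own bases.

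**Figure D1:**
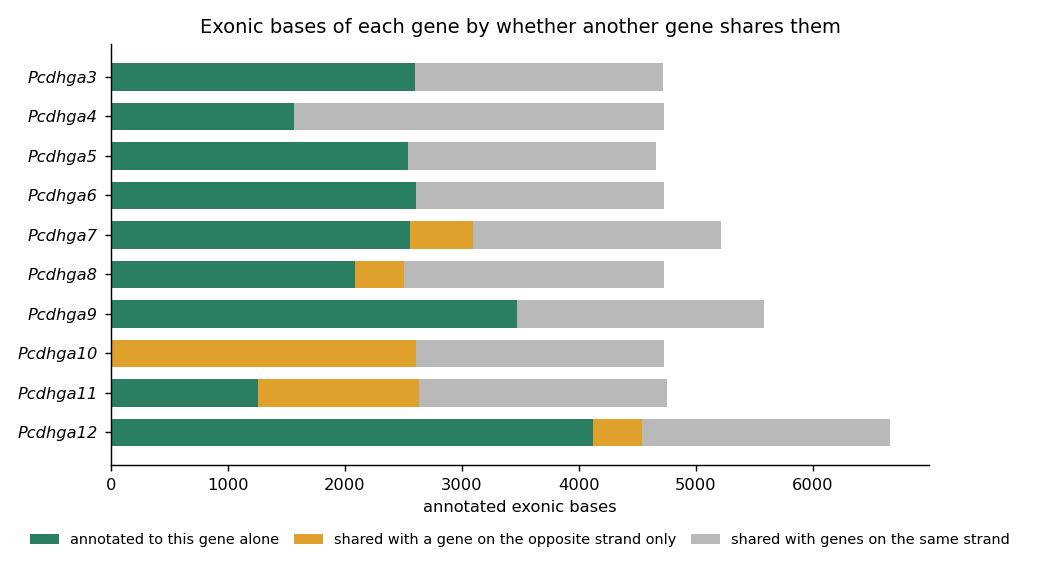
Annotated exonic bases of the 10 gamma A genes, divided into bases annotated to that gene alone, bases shared with a gene on the opposite strand only, and bases shared with genes on the same strand. Pcdhga10 has 0 bases of its own, and Pcdhga12 has the most, 4123.

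Pcdhga10 was at 0 counts in all 10 libraries. With no base that could be counted for it, this value carries no information about its expression, and Pcdhga10 has no level in any group below. Gm26672, the gene on the opposite strand, had 42 to 81 counts in the 5 controls, 18 to 31 in Mphosph8Δ/Δn, and 50 and 6 in Morc2aΔ/Δn. These are reads on the part of Gm26672 that shares no base with a protocadherin. Its log2 fold change was -1.33 (SE 0.59, adjusted p = 0.872) in Mphosph8Δ/Δn and -1.09 (SE 0.68, adjusted p = 0.613) in Morc2aΔ/Δn, neither past the threshold. Between the other 9 genes, cross-reading is limited: between 95.4% (Pcdhga8) and 100% (Pcdhga7 and Pcdhga11) of the 50-base windows on own bases, the length of the reads, occur in no other annotated transcript. The 94 shared windows of Pcdhga8 are shared with Pcdhga9, so reads there cannot be assigned to either with certainty. Of the windows of Pcdhga12, 43 of 3976 also occur in transcripts of 616 other genes.

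In the controls, Pcdhga12 was by far the most abundant gamma A gene by reads on own bases. Per kilobase of own bases it had 11.5 ± 4.05 CPM (SD, n = 5), and its lowest control, 7.12 CPM per kilobase, lay above the highest control of each other member. Pcdhga6 followed with 1.19 ± 0.378, Pcdhga11 with 1.15 ± 1.09, Pcdhga5 with 0.711 ± 0.667, Pcdhga3 with 0.502 ± 0.482 and Pcdhga4 with 0.482 ± 0.526 CPM per kilobase (SD, n = 5 each). The control ranges of these 5 genes overlapped, so their order is not settled beyond the spread between libraries. Pcdhga9 and Pcdhga8 were at 0.0854 ± 0.110 and 0.0631 ± 0.117 CPM per kilobase, and Pcdhga7 had 0 counts in all 5 controls.

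The members also differed in how much they varied between libraries of the same group. Controls of both floxed lines form 1 group here, so differences between the lines enter this spread. Pcdhga12, for example, had means of 58.9 CPM in controls of the Mphosph8 line and 29.7 CPM in those of the Morc2a line. The biological coefficient of variation that edgeR estimated was 0.232 for Pcdhga12 and 0.355 for Pcdhga6, but 0.631 for Pcdhga4 and between 0.790 and 1.26 for Pcdhga3, Pcdhga5, Pcdhga7, Pcdhga9 and Pcdhga11. The value of 1.26, of Pcdhga9, was higher than that of 95.8% of the genes tested. In this gene, Mphosph8Δ/Δn replicates 1, 2 and 3 held 22, 69 and 0 counts. Much of the order followed the count level, since the trend that edgeR fitted over all genes at the same abundance was 0.164 for Pcdhga12, 0.435 for Pcdhga6, 0.561 for Pcdhga4 and 0.581 to 0.971 for the other 5. Pcdhga3, Pcdhga7 and Pcdhga11 lay close to it, with 0.823 against 0.764, 0.934 against 0.946 and 0.844 against 0.841, while Pcdhga12 lay above it and Pcdhga6 below it.

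The first question was whether loss of Mphosph8 changed the level of the gamma A genes. Pcdhga6 and Pcdhga12 were higher and passed the test, Pcdhga4 and Pcdhga7 were higher in every Mphosph8Δ/Δn library than in any control without passing it, and the remaining members overlapped between the groups or had no level. Each knockout was compared with all 5 controls within 1 model of the 10 libraries. The test was edgeR's quasi-likelihood test, with p-values adjusted over the 18573 genes tested (Benjamini-Hochberg). To be called, a gene needed an adjusted p under 0.05 together with more than a 2-fold change. Of the 10 members, 8 passed the filter on low counts and Pcdhga8 and Pcdhga10 did not. Pcdhga4, Pcdhga7 and Pcdhga9 passed it through the knockout libraries, since fewer than 2 of their controls reached the minimum of 1.03 CPM. Of the 8 members tested, 2 were called higher and 0 lower, where 0.0969% of all genes tested were called higher.

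Pcdhga12 had 481, 532 and 693 counts in control replicates 1 to 3, and 297 and 202 in replicates 4 and 5. In Mphosph8Δ/Δn it had 1371, 1037 and 1276 counts. In CPM these were 60.2, 51.8, 64.8, 29.3 and 30.0 in the controls and 142, 100 and 132 in the knockout, so the groups did not overlap, and the controls of the Morc2a line were the lowest. The log2 fold change was 1.40 (SE 0.24, adjusted p = 0.0231). Against the 3 controls of its own line it was 1.08 (SE 0.18, adjusted p = 0.0393), and 1 of the 8 members was called in that comparison, where 0.0538% of all genes tested were called higher. Without any one of the 3 Mphosph8Δ/Δn libraries the adjusted p against all controls rose to between 0.0626 and 0.172, with log2 fold changes of 1.30 to 1.54. In the alternatives that kept all libraries it was between 1.09e-14 and 0.0393.

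Pcdhga6 had 3.63, 3.61, 4.11, 1.68 and 2.52 CPM in control replicates 1 to 5 (17 to 44 counts) and 13.1, 11.5 and 12.2 CPM in Mphosph8Δ/Δn (127, 119 and 118 counts). The knockout libraries lay close together and above all controls. Its log2 fold change was 1.97 (SE 0.36, adjusted p = 0.0349). Against its own line's controls the log2 fold change was 1.69 (SE 0.38), and the call was lost (adjusted p = 0.206). It was also lost without any one of the 5 controls (adjusted p between 0.0504 and 0.0943) or of the 3 Mphosph8Δ/Δn libraries (between 0.133 and 0.172), and in the alternatives that kept all libraries the adjusted p was between 4.97e-04 and 0.362.

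Pcdhga4 had 5, 0, 10, 21 and 1 counts in the controls and 73, 86 and 103 counts in Mphosph8Δ/Δn. This is 0.757 ± 0.826 CPM (SD, n = 5) against 8.83 ± 1.62 CPM (SD, n = 3), without overlap. The log2 fold change was 3.49 (SE 0.73), and the adjusted p of 0.0954 missed the threshold in edgeR and passed it in DESeq2 (0.00116) and limma-voom (0.0449). Over the alternatives that kept all libraries it was between 4.66e-05 and 0.174. Leaving out single libraries gave values from 0.0313, without control replicate 4, the highest control, to 0.337.

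Pcdhga7 had 0 counts in all 5 controls and 5, 69 and 39 counts in Mphosph8Δ/Δn. Summed over the libraries of each group, its knockout level was 58.1-fold that of a floor of 3 counts over the controls. This ratio allows for counting error in the controls only, not in the knockout or for the spread between its libraries. Replicate 2 held 69 of the 113 knockout counts, and the ratio was 34.7-fold without it and 36.7-fold against controls of the same line. The adjusted p was 0.0732 in edgeR and 2.25e-04 in DESeq2, and limma-voom did not call the gene. Over the alternatives that kept all libraries the adjusted p was between 4.17e-05 and 0.544. The counts of the 3 knockout libraries themselves were far apart, with replicate 1 near the floor.

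The other members overlapped between the groups. Pcdhga5 had 23, 3, 20, 0 and 27 counts in the controls and 92, 96 and 27 in Mphosph8Δ/Δn, with a log2 fold change of 2.01 (SE 0.84, adjusted p = 0.825). Pcdhga9 had 2, 0, 10, 0 and 2 counts in the controls and 22, 69 and 0 in Mphosph8Δ/Δn, with a log2 fold change of 3.26 (SE 1.40, adjusted p = 0.839). In Pcdhga3, 9, 11, 3, 35 and 4 counts in the controls stood against 5, 14 and 51, and in Pcdhga11, 13, 16, 38, 5 and 0 against 30, 10 and 17 (adjusted p = 0.997 for both). Pcdhga8, which was not tested, had 0, 1, 6, 0 and 0 counts in the controls and 12, 0 and 0 in Mphosph8Δ/Δn. The high and low libraries thus were not the same from gene to gene: Mphosph8Δ/Δn replicate 3 was the highest of its group for Pcdhga3 and Pcdhga4 and the lowest for Pcdhga5.

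In Pcdhga4, Pcdhga6, Pcdhga7 and Pcdhga12 all Mphosph8Δ/Δn libraries lay above all controls, also with controls under 3 counts set to the floor. Pcdhga4 and Pcdhga7 are left out of the count that follows, because they entered the test through the libraries in which they were high. Of the 5 members that passed the filter on their controls alone (Pcdhga3, Pcdhga5, Pcdhga6, Pcdhga11 and Pcdhga12), 2 had this pattern, where 2.08% of the 17126 genes that passed in the same way did. The median log2 fold change over these 5 members was 1.40, with values from 0.41 to 2.01, and it was -0.02 over the 17126 genes.

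**Figure D2:**
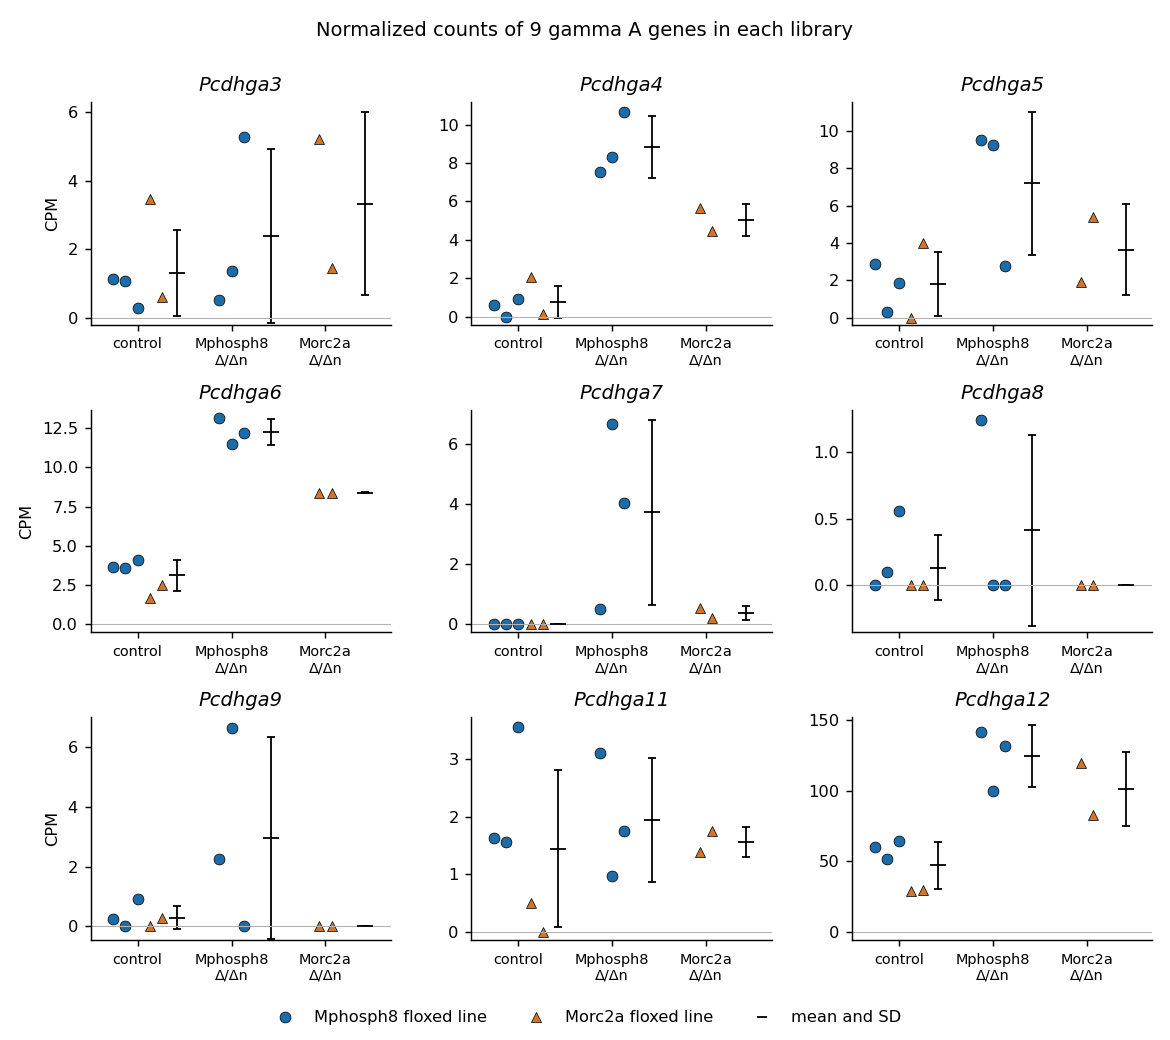
CPM of 9 gamma A genes (Pcdhga10 is left out for lack of countable bases) in each library, 5 control, 3 Mphosph8Δ/Δn and 2 Morc2aΔ/Δn, with the floxed line as the marker shape and the mean and SD of each group beside the points, on a linear axis with its own range for each gene. In Pcdhga4, Pcdhga6 and Pcdhga12 all 5 knockout libraries lie above all 5 controls, and in Pcdhga7, at 0 in the controls, Morc2aΔ/Δn replicate 2 has 2 counts, under the floor of 3.

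The second question was the same for Morc2a. In the 2 Morc2aΔ/Δn libraries, 0 of the 8 members tested were called against all 5 controls by edgeR, where 0.0377% of all genes tested were called higher. At an unadjusted p below 0.05 (edgeR) there were 4, all higher: Pcdhga4, Pcdhga6, Pcdhga7 and Pcdhga12. Pcdhga4 and Pcdhga7 had entered the test through the knockout libraries. The share of all genes at this unadjusted cutoff is not given, so the 4 are a description only. DESeq2 called 1, Pcdhga12 (adjusted p = 0.00707, within 1.51e-06 to 0.186 over the alternatives that kept all libraries), and limma-voom 0. For these tools the share of all genes called is not given. Both Morc2aΔ/Δn libraries lay above all 5 controls in Pcdhga4, Pcdhga6 and Pcdhga12. Of the 5 members that passed the filter on their controls alone, Pcdhga6 and Pcdhga12 did, 2 of 5, where 7.38% of the 17126 genes that passed in the same way did.

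Pcdhga12 had 1129 and 801 counts in Morc2aΔ/Δn, which is 120 and 82.6 CPM. The log2 fold change was 1.10 (SE 0.27, adjusted p = 0.129) against all controls. Against the 2 controls of the Morc2a line alone, which had 29.3 and 30.0 CPM, it was 1.77 (SE 0.23, adjusted p = 0.00636). In that comparison 1 of the 8 members was called, with the same background of 0.0377%. The call for Pcdhga12 in Morc2aΔ/Δn thus depended on which controls it was set against.

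Pcdhga6 had 79 and 81 counts (8.40 and 8.36 CPM), between the highest control, 4.11 CPM, and the lowest Mphosph8Δ/Δn library, 11.5 CPM. Its log2 fold change was 1.42 (SE 0.40, adjusted p = 0.193) against all controls and 2.00 (SE 0.49, adjusted p = 0.208) against its own line. Pcdhga4 had 53 and 43 counts (5.64 and 4.44 CPM), and a log2 fold change of 2.68 (SE 0.78, adjusted p = 0.220). Pcdhga7 had 5 and 2 counts against 0 in the controls (adjusted p = 0.294 against all controls, edgeR). Its summed level was 5.60-fold that of the same floor over all controls and 2.06-fold over controls of the same line. These ratios rest on 7 reads and do not allow for their counting error or the spread between the 2 libraries. Morc2aΔ/Δn replicate 2, at 0.206 CPM, lay below the floor of each control, so it cannot be placed above them. No fold change of these 3 genes passed the test.

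The remaining members overlapped with the range of all 5 controls in Morc2aΔ/Δn or were at 0. Pcdhga3 had 49 and 14 counts (adjusted p = 0.685), Pcdhga5 18 and 52 (adjusted p = 0.763) and Pcdhga11 13 and 17 (adjusted p = 0.987). Controls of the Morc2a line alone held 5 and 0 counts of Pcdhga11, below both knockout libraries. Against them its log2 fold change was 2.50 (SE 1.32, adjusted p = 0.607, edgeR). Pcdhga8 and Pcdhga9 had 0 counts in both libraries. The controls of these 2 genes held 7 and 14 counts over all 5 libraries, so a lower level was not detectable at this depth. The median log2 fold change over the 5 members that passed the filter on their controls alone was 1.10, with values from 0.10 to 1.42, and it was -0.02 over the 17126 genes.

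Both comparisons share the 5 control libraries. In Pcdhga4, Pcdhga6 and Pcdhga12 all 5 knockout libraries lay above all 5 controls. Of the 5 members that passed the filter on their controls alone, this was 2, where 0.549% of the 17126 genes had the pattern.

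**Figure D3:**
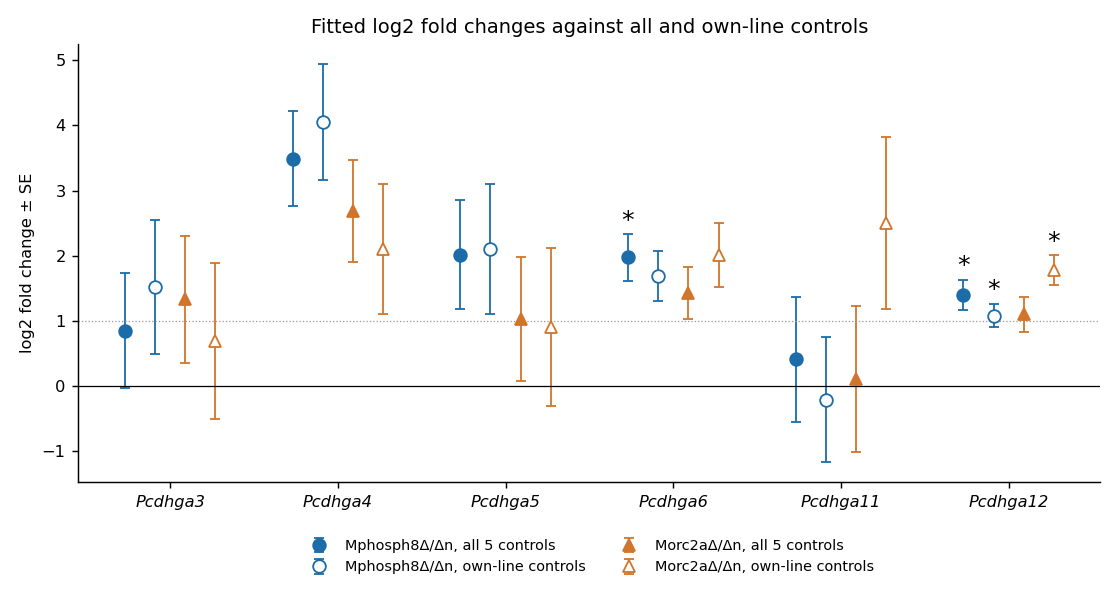
Log2 fold change and SE of 6 gamma A genes in Mphosph8Δ/Δn (circles) and Morc2aΔ/Δn (triangles), against all 5 controls (filled) or controls of the same floxed line (open). Asterisks mark calls (adjusted p under 0.05, more than a 2-fold change), which Pcdhga12 reached in 3 of the 4 comparisons and Pcdhga6 in 1. Pcdhga7 and Pcdhga9 are left out, as a whole group of each was at 0.

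The 2 floxed lines were compared through their controls, none of which carries Cre. Pcdhga12 was at 58.9 ± 6.56 CPM (SD, n = 3) in controls of the Mphosph8 line and at 29.7 ± 0.435 CPM (SD, n = 2) in those of the Morc2a line. The log2 difference, Morc2a line minus Mphosph8 line, was -0.99 (SE 0.21) and missed the threshold (unadjusted p = 2.39e-04, adjusted p = 0.0725). Pcdhga11 had 13, 16 and 38 counts in the Mphosph8 line and 5 and 0 in the Morc2a line, a log2 difference of -3.02 (SE 1.28, adjusted p = 0.472). For Pcdhga6 the difference was -0.86 (SE 0.46, adjusted p = 0.596). Of the 8 members tested, 0 were called by edgeR, DESeq2 or limma-voom, 2 had an unadjusted p below 0.05 (edgeR), and 0.129% of all genes tested were called in either direction. Pcdhga7, with 0 counts in all 5 controls, could not be called in this comparison. Of the 8, Pcdhga6, Pcdhga11 and Pcdhga12 had both Morc2a-line controls below all Mphosph8-line controls, which 15.1% of all genes tested had. Pcdhga3, Pcdhga4 and Pcdhga5 had ranges that overlapped between the lines. A sum over 6 activity-regulated genes (Fos, Fosb, Egr1, Npas4, Arc and Junb) also differed between these controls, with 740 to 1176 CPM in the Mphosph8 line and 393 to 546 CPM in the Morc2a line. The sum was 351 to 591 CPM in Mphosph8Δ/Δn, below all controls of the same line, where 6 of the 6 genes were lower at an unadjusted p below 0.05 with a median log2 fold change of -0.85 and 0 passed the test (edgeR). In Morc2aΔ/Δn it was 494 and 579 CPM, with 0 of the 6 at an unadjusted p below 0.05 against the same line. The part of these genes in the differences of the members, between lines or between knockouts and controls, was not tested.

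Whether the effects of both knockouts differed was tested as an interaction, with same-line controls for each knockout. Of the 8 members, 0 were called by edgeR, DESeq2 or limma-voom, and 0% of all genes tested were called by edgeR. Pcdhga7, with 0 counts in all 5 controls, could not be called here either, and the Morc2aΔ/Δn libraries of Pcdhga9 were at 0 counts. Pcdhga12 was the 1 member with an unadjusted p below 0.05: the Mphosph8Δ/Δn effect minus the Morc2aΔ/Δn effect was -0.69 on the log2 scale (SE 0.29, unadjusted p = 0.0281, adjusted p = 0.569). Pcdhga4 had a difference of 1.95 (SE 1.29, adjusted p = 0.741) and Pcdhga6 of -0.31 (SE 0.61, adjusted p = 0.936), so that a difference of 0 lay within 2 SE for both.

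Summed over the members, the level was 70.3, 58.5, 77.0, 37.0 and 37.5 CPM in control replicates 1 to 5, 179.5, 144.8 and 168.6 CPM in Mphosph8Δ/Δn, and 143.1 and 104.2 CPM in Morc2aΔ/Δn. No knockout library fell into the range of the controls. The log2 ratio of the group means was 1.55 for Mphosph8Δ/Δn and 1.14 for Morc2aΔ/Δn against all controls. The log2 sums of the single control libraries had an SD of 0.50. Against controls of the same line the log2 ratio of the means was 1.26 and 1.73. The larger value thus changed from one knockout to the other with the choice of controls.

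Pcdhga12 made up most of this sum. It held 85.6%, 88.7%, 84.1%, 79.2% and 79.8% of the members' counts in control replicates 1 to 5. In Mphosph8Δ/Δn it held 78.9% (95% Wilson interval 76.9% to 80.8%), 69.1% (66.7% to 71.4%) and 78.2% (76.2% to 80.2%), each below the lowest control. The intervals of control replicates 4 and 5, 74.8% to 83.0% and 74.5% to 84.3%, contain the values of 78.9% and 78.2%. The shares in Morc2aΔ/Δn, 83.9% and 79.3%, lay within the range of the controls. These shares were not tested between groups, and the intervals cover counting error only.

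Without Pcdhga12, the sum was 10.1, 6.63, 12.2, 7.71 and 7.56 CPM in control replicates 1 to 5, so that the controls of the Morc2a line lay within the range of the Mphosph8 line. It was 37.8, 44.7 and 36.7 CPM in Mphosph8Δ/Δn and 23.1 and 21.6 CPM in Morc2aΔ/Δn, and the 3 groups did not overlap. The log2 ratio of the group means, against all controls, was 2.17 and 1.33. The number of members with a count was 5 to 8 in the controls, 7 to 9 in Mphosph8Δ/Δn and 7 in both Morc2aΔ/Δn libraries. The members held 38.3% to 43.4% of all counts of the gamma array in the controls, 40.3% to 47.5% in Mphosph8Δ/Δn, and 43.9% and 45.4% in Morc2aΔ/Δn.

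**Figure D4:**
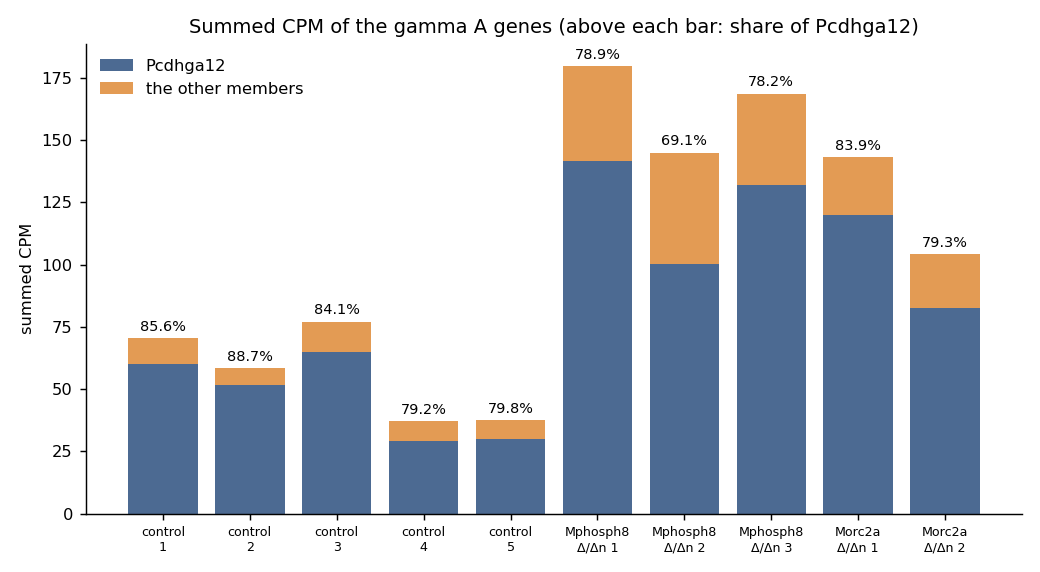
CPM summed over the gamma A genes in each of the 10 libraries, divided into Pcdhga12 and the other members, with the share of Pcdhga12 in the members' counts above each bar. The 5 knockout libraries reach 104.2 to 179.5 CPM and the 5 controls 37.0 to 77.0 CPM.

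Of the other 12 genes of the gamma array, 11 were tested. Pcdhga1, Pcdhga2, Pcdhgb4, Pcdhgb5, Pcdhgb6 and Pcdhgb8 entered the test through knockout libraries, since fewer than 2 of their controls reached the filter's minimum. The numbers of values above 0 and the medians that follow were thus in part set by the filter. The other genes tested passed it on their controls. Their log2 fold changes against all controls were 0.52 to 1.86 in Mphosph8Δ/Δn and -0.60 to 0.98 in Morc2aΔ/Δn. In Mphosph8Δ/Δn 11 of 11 fitted values were above 0, with a median log2 fold change of 1.85 where that over all genes tested was -0.0090. Of the 11, 1 was called by edgeR, the C-type gene Pcdhgc4 (log2 fold change 1.34, SE 0.22, adjusted p = 0.0231). Of all genes tested, 0.0969% were called higher. DESeq2 called 2 and limma-voom 1, for which the share of all genes called is not given. In Morc2aΔ/Δn 8 of the 11 were above 0 and 3 below, and the median was 0.83 where that over all genes tested was -0.014. Of the 11, 0 were called by edgeR, DESeq2 or limma-voom, and 1 had an unadjusted p below 0.05 (edgeR). Against controls of the same line, 11 of the 11 were above 0 in Morc2aΔ/Δn and Pcdhgc4 was called (adjusted p = 0.0106). The test of a difference between these genes and the 10 members was not made.

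Genes whose products act on or with gamma protocadherins were looked at as a list of 14. They are Adam10, the sheddase that cuts the extracellular part, gamma-secretase subunit genes (Psen2, Ncstn, Aph1a, Aph1b and Psenen), which release the intracellular part, the kinases Ptk2 and Ptk2b and the Wnt scaffold Axin1, which have been tied to the cytoplasmic side, Marcks, a kinase substrate in dendrite growth, the neuroligins Nlgn1 and Nlgn2, and the kinases Fyn and Src. All 14 were tested and edgeR, DESeq2 and limma-voom each called 0 of them in both knockouts. At an unadjusted p below 0.05 (edgeR), Aph1b was lower in Mphosph8Δ/Δn with a log2 fold change of -0.44 (SE 0.20, adjusted p = 0.872). In Morc2aΔ/Δn there were 2, Src with 0.43 (SE 0.19, adjusted p = 0.426) and Axin1 with 0.45 (SE 0.21, adjusted p = 0.454). The median over the list was -0.0048 and -0.07.

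Outside the clustered protocadherins, the 5 genes whose log2 CPM followed the members' log2 summed CPM most closely over the 10 libraries were Tchh, 3222401L13Rik, Gm12924, Pqlc3 and Upp2, with Pearson's r of 0.966, 0.956, 0.938, 0.914 and 0.913. The libraries fall into the study's groups, so these values describe a pattern across groups and lines and carry no test. Tchh, which encodes the hair follicle protein trichohyalin, was at 6.32 to 12.7 CPM in the controls, 21.8 to 32.7 CPM in Mphosph8Δ/Δn and 17.0 to 20.9 CPM in Morc2aΔ/Δn. The long noncoding RNA 3222401L13Rik, on chromosome 18 like the members, was at 0 to 9.06 CPM in the controls, 117 to 178 CPM in Mphosph8Δ/Δn and 71.1 to 119 CPM in Morc2aΔ/Δn.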

How the data were processed

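Libraries of poly(A) RNA were read as 50-base single ends. The authors aligned the trimmed reads to GRCm38 (Ensembl release 94) and deposited a table per library of raw counts per gene, made with featureCounts (Subread 1.6.2) and not normalized. The strand setting and the handling of reads on shared bases are not given in the sources used here and were read from the counts, with exons from GENCODE M21.

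Counts were analysed with edgeR 4.0.16 in R 4.3.3 (filterByExpr, TMM, quasi-likelihood test), with limma 3.58.1 and DESeq2 1.42.0 as alternatives, after the tests had been tested on simulated data. The line and interaction comparisons used 4 groups. CPM per kilobase is per own exonic base. The common dispersion was 0.141. The chi-square per degree of freedom within groups, 9.55 to 38.4 over 14 pairs of libraries, shows a spread above counting error, and the tests assume 1 mouse per library. The members, gene lists and the rule for named genes (the members, the targeted genes, other gamma genes past the threshold, partner genes past it or with the smallest p, and the 5 closest patterns) were chosen with earlier results of these data known. Partner genes at an unadjusted p below 0.05, Gm26672 and the gene names in marker sums were added after their values had been seen. So were the other gamma genes named for entering the test through knockout libraries. The same holds for the counts, medians and ranges over genes that passed the filter on controls alone, and for the ratios of Pcdhga7 with libraries left out. Of 65 marker genes tested in 12 lists, 1 (Gh, pituitary) was called in Mphosph8Δ/Δn and 0 in Morc2aΔ/Δn. A few genes of the marker and partner lists are not reported here. No sequences are shown.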

Additional observations from a re-analysis of the deposited data

Results flagged for a closer look

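A single control library stood far from the other 4 in 2 members, of 13 sets of control values examined. Chance flags about 1 in 20 sets of normally distributed values, a rate that need not hold for counts as low as these. For Pcdhga3 it was control replicate 4 at 3.46 CPM, with a gap to the next control of 0.734 of the range of the 5 controls. For Pcdhga8 it was control replicate 3 at 0.561 CPM, which is 6 counts, with a gap of 0.826 of the range.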

How the results depend on the processing

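The count of members called higher in Mphosph8Δ/Δn, 2 of 8, was 4 of 9 without a filter on low counts, 4 with DESeq2, 1 against controls of the same line, and 0 to 2 with 1 library left out. In Morc2aΔ/Δn, the count of 0 became 2 without the filter, 1 with at least 10 counts in every library, 1 with DESeq2 and 1 against controls of the same line. Between the lines it became 1 (Pcdhga12) without the filter. In Mphosph8Δ/Δn, the 4 called without the filter and the 4 with DESeq2 included Pcdhga4 and Pcdhga7, which entered the main test through knockout libraries. Among these alternatives, the share of all genes called is given above only for controls of the same line. The log2 ratio of mean summed CPM was 2.17 without Pcdhga12 in Mphosph8Δ/Δn and 1.73 against same-line controls in Morc2aΔ/Δn. Per kilobase of own bases, the mean share of Pcdhga12 was 72.7% in controls, 62.2% in Mphosph8Δ/Δn and 69.6% in Morc2aΔ/Δn, in place of 83.5%, 75.4% and 81.6%. Some fold changes turned sign: Pcdhga11 in Mphosph8Δ/Δn was -0.21 against same-line controls and between -0.10 and 1.05 with 1 library left out, in Morc2aΔ/Δn between -0.22 and 0.75, and Pcdhga3 in Mphosph8Δ/Δn, at 0.85 with all libraries, between -0.48, without Mphosph8Δ/Δn replicate 3, and 1.62. The cause was not tested. Over 16 fold changes, those of the 8 members tested in each knockout, 256 of 288 alternative values kept their direction and their side of the threshold. Most of the 16 were not past the threshold at the start. Of those that were, both in Mphosph8Δ/Δn, Pcdhga6 lost the call in 10 alternatives and kept it in 9. Pcdhga12 lost it in 3 and kept it in 16.

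Libraries with the same replicate number were not treated as pairs: residuals of same-numbered libraries correlated between -0.0275 and 0.0428 over 7 pairs, against -0.0552 to 0.0406 over 24 others. With the replicate block, 1 member (Pcdhga12) was called in Mphosph8Δ/Δn and 0 in Morc2aΔ/Δn, and Pcdhga11 was at -0.19 and -0.21. A block for the line comparison and the interaction could not be fitted, as replicates 4 and 5 exist in controls of the Morc2a line alone. With at least 10 counts in every library, 2 members were left to test. The small counts of Pcdhga3, Pcdhga5, Pcdhga8, Pcdhga9 and Pcdhga11 limit what a difference could show.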
